A study of Populus ussuriensis with 20 samples.

Results

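The genes described here are 8 transcriptional switches of wood formation, 4 NAC genes (WND1A, WND1B, WND2A and WND2B) and 4 MYB genes (MYB002, MYB003, MYB020 and MYB021), in the rooting stem base of Populus ussuriensis (Ussuri poplar). They were chosen by identifier, as known regulators of wood formation in poplar, and all 8 were found among the 34699 genes measured. Their identifiers are Potri.011G153300 (WND1A), Potri.001G448400 (WND1B), Potri.014G104800 (WND2A), Potri.002G178700 (WND2B), Potri.001G258700 (MYB002), Potri.001G267300 (MYB003), Potri.009G061500 (MYB020) and Potri.009G053900 (MYB021). The deposited file holds identifiers only, so the names rest on that choice and could not be checked against an annotation. No genome or annotation was used here, and neither coordinates nor sequences are given.

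Secondary cell walls, the thick lignified walls of wood vessels and fibres, are switched on through a relay of transcription factors. NAC factors of the WND group, the poplar relatives of Arabidopsis SND1 and NST1, stand at the top of this relay. Among their direct targets are the MYB factors, the poplar relatives of Arabidopsis MYB46 and MYB83, which in turn switch on genes for cellulose, xylan and lignin synthesis. The poplar genes come in pairs of duplicates left by a genome duplication in the willow family.

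Cuttings that had formed root primordia on solid medium were moved to liquid Woody Plant Medium with 10 µM KH2PO4 (low phosphate) or 200 µM KH2PO4 (the higher level), and their basal ends were collected 2, 4, 8, 12 and 24 h later. All groups shared the earlier culture of 5 days, the light and dark cycle and the transfer itself. Each of the 10 groups of phosphate and time had 2 libraries, 20 in all, numbered in the labels without saying whether they came from separate cultures. Every p-value below is therefore set against a spread among libraries that may be technical. Hours after transfer and hour of the day cannot be told apart. The basal end is a mixture of stem tissue and primordia, so fewer cells of a type and less RNA per cell cannot be told apart, and the tissue could not be checked against marker genes because the other identifiers carry no names.

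Expression is given as FPKM, fragments scaled to the length of the gene and to the total of the library, so levels of different genes can be compared per length. Library totals recovered from the steps between low FPKM values ran from 14053678 to 15764765 fragments. Libraries at 2 h with the same number deviated together at the 2 phosphate levels (r = 0.504 across genes between the replicate differences), and at 8 h the 10 µM libraries were the furthest apart of all groups (SD 0.43 of the log2 difference between replicates, against 0.229 to 0.395 in the other groups). For the tested genes the differences of 24 h and 2 h are given with and without each set of 2 h libraries. Sums, ratios and correlations are given for all libraries only.

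All 8 genes were weakly expressed. Averaged over the 20 libraries, MYB021 had the highest level with 3.01 ± 0.90 FPKM (SD, n = 20), followed by WND1A with 2.32 ± 1.04 FPKM, MYB020 with 1.49 ± 0.75 FPKM and WND1B with 1.29 ± 0.51 FPKM. The means of the others lay below 1 FPKM, at 0.885 FPKM for WND2A, 0.798 FPKM for MYB003, 0.726 FPKM for MYB002 and 0.343 FPKM for WND2B. Of the tested genes, 22.1% had a lower mean than MYB021 and 17.1% a lower mean than WND1A.

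Neighbours in this order often changed places. MYB021 exceeded WND1A in 12 of 20 libraries, WND1A exceeded MYB020 in 11, and MYB020 exceeded WND1B in 11. WND1B lay above WND2A in 18 of 20 libraries, WND2A above MYB003 in 13, and MYB003 above MYB002 in 11. MYB002 exceeded WND2B in 17. Neighbours kept their order in over 16 of 20 libraries at 2 places only, between WND1B and WND2A and between MYB002 and WND2B.

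The values rested on few fragments. A library held 44 to 123 fragments of MYB021, 16 to 115 of WND1A and 13 to 76 of MYB020, but 1 to 18 of WND2B. The squared difference between replicates, divided by what counting alone gives (1 on this scale), averaged 1.85 for WND2A, 1.96 for MYB002, 2.30 for WND2B, 3.21 for MYB003, 4.34 for MYB020, 4.94 for MYB021, 5.22 for WND1A and 5.68 for WND1B over the 10 groups. These averages were above 1 for each of the 8 genes. WND2B reached 1 FPKM in 0 of 20 libraries and did not pass the filter on low values (at least 1 FPKM in at least 2 libraries), which left 7 of the 8 genes among the 24934 tested.

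**Figure D1:**
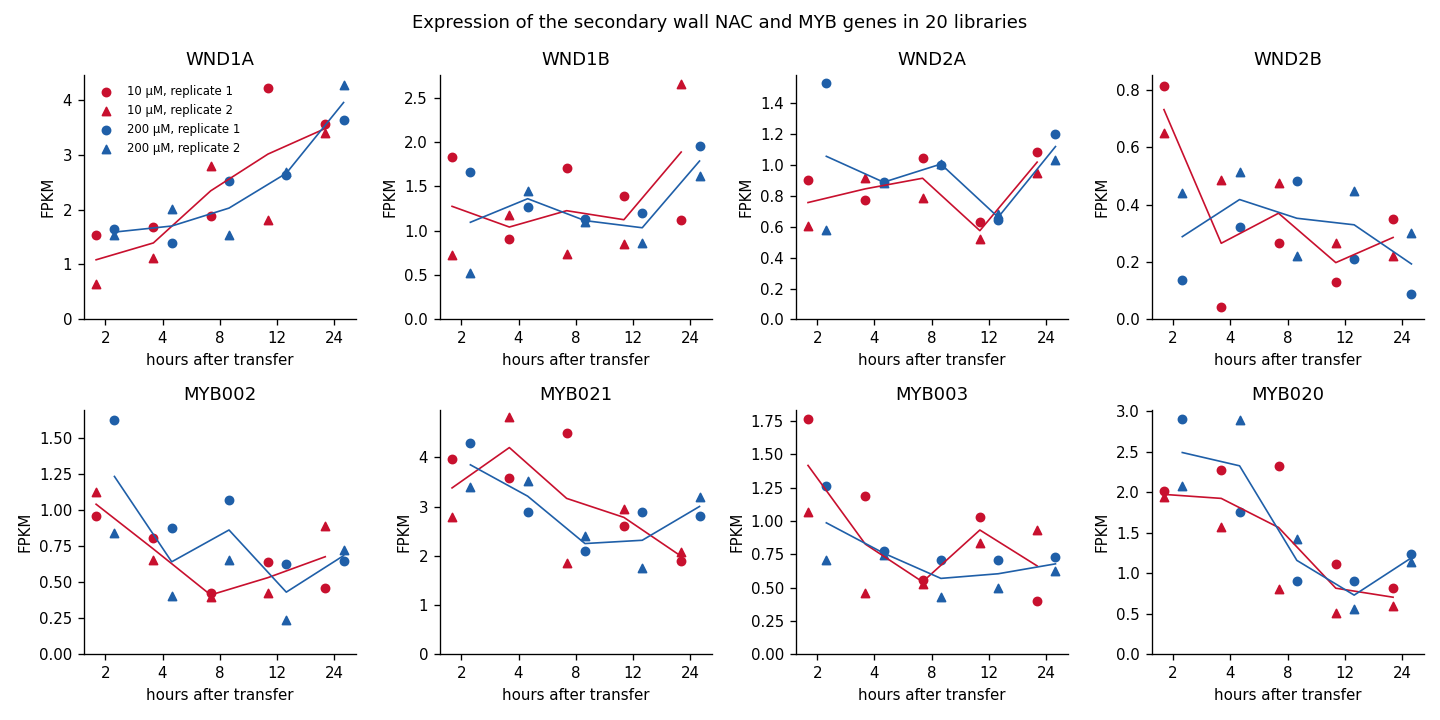
FPKM of each gene (vertical axes, from 0, with a scale of their own) against hours after transfer, at 10 µM KH2PO4 (red, left of each tick) and 200 µM (blue, right); circles and triangles are the libraries numbered 1 and 2, and lines join the means. WND1A climbs to 3.39 FPKM or more in all 4 libraries at 24 h, MYB020 lies at 1.24 FPKM or less there, and at both phosphate levels the mean of WND1A is highest at 24 h.

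Along the time course 1 NAC gene and 1 MYB gene changed, in opposite directions. WND1A rose and MYB020 fell at 24 h relative to 2 h, whereas the other 5 tested genes did not pass the threshold. In limma's F test of variation with time over both phosphate levels, 2 of the 7 tested genes passed a Benjamini-Hochberg adjusted p of 0.05, against 14.6% of all tested genes. Between 24 h and 2 h 2 of 7 passed as well, against 12.3%. An unadjusted p under 0.05 was reached by 5 of 7, against 27.1%. On fragment counts (limma's voom) it was reached by 4 of 7, beside 6848 of the 24927 genes tested there. The 5 include MYB002, which passed the filter on low values through its 2 h libraries, so that count is a description only. WND1A had an adjusted p for variation with time of 0.0128 and MYB020 of 0.0182, and the other 5 lay between 0.157 (MYB002) and 0.496 (WND1B). Of the single steps, 12 h against 4 h had 1 of 7 past the threshold, MYB020, beside 7.18% of all tested genes. In the other steps limma called none of the 7 genes. At 4 h against 2 h 0 of 7 passed, beside 0.0481% of all tested genes, and at 24 h against 12 h 0 of 7, beside 1.47%. At an unadjusted p under 0.05 there was 1 gene of 7 at 4 h against 2 h, MYB002 (10.8% of all tested genes). MYB002 passed the filter through 2 h, and 0 of 7 had such a p with voom (2640 of 24927 tested genes), so this hit supports nothing further. At 24 h against 12 h the 1 gene was WND2A (17.1%). With voom 1 of 7 had such a p there, beside 4322 of 24927 tested genes. At the adjusted threshold voom called 0 of 7 in both steps.

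WND1A is one of the NAC genes at the top of the relay. At 10 µM it measured 1.53 and 0.642 FPKM at 2 h, 1.67 and 1.11 FPKM at 4 h, 1.89 and 2.79 FPKM at 8 h, 4.21 and 1.81 FPKM at 12 h, and 3.56 and 3.39 FPKM at 24 h. At 200 µM it measured 1.65 and 1.53 FPKM at 2 h, 1.40 and 2.00 FPKM at 4 h, 2.52 and 1.54 FPKM at 8 h, 2.64 and 2.68 FPKM at 12 h, and 3.62 and 4.27 FPKM at 24 h. All 4 libraries at 24 h lay above all 4 at 2 h and all 4 at 4 h, and the group mean was higher at each later time at both phosphate levels. Of all tested genes 11.8% lay wholly higher at 24 h than at 2 h. The shares for 24 h against 4 h and for the order of the means were not computed. The 12 h libraries at 10 µM were far apart, with 1 above and the other below both libraries at 200 µM.

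Averaged over both levels, WND1A was higher at 24 h than at 2 h by 1.03 ± 0.20 (log2, SE) on the scale of log2(FPKM + 1), a 2.04-fold difference (limma, Benjamini-Hochberg adjusted p = 0.0042). This scale understates changes of weak genes, and on fragment counts (limma's voom) the difference was 1.54 ± 0.31 (log2, SE). The 4 libraries at 24 h held 393 WND1A fragments together, against 137 in the 4 libraries at 2 h. The rise passed the threshold without any 1 of the 20 libraries (adjusted p from 0.0017 to 0.0234) and also, in alternatives chosen after seeing the data, without both 2 h libraries numbered 2 (0.86, adjusted p = 0.0341), which include its lowest value of the series, or those numbered 1 (1.21, adjusted p = 0.0074). At 12 h against 4 h the difference was 0.57 ± 0.20 (log2, SE) with an adjusted p of 0.0949, which missed the threshold, and without the 10 µM replicate 2 at 12 h it was 0.79 with an adjusted p of 0.0416.

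WND1B, the duplicate of WND1A, did not pass in any of the time comparisons. At 10 µM it measured 1.83 and 0.723 FPKM at 2 h, 0.906 and 1.18 FPKM at 4 h, 1.71 and 0.739 FPKM at 8 h, 1.39 and 0.855 FPKM at 12 h, and 1.12 and 2.65 FPKM at 24 h. At 200 µM it measured 1.66 and 0.526 FPKM at 2 h, 1.27 and 1.45 FPKM at 4 h, 1.13 and 1.10 FPKM at 8 h, 1.20 and 0.864 FPKM at 12 h, and 1.96 and 1.61 FPKM at 24 h. The libraries at 2 h numbered 1 lay above those numbered 2 at both levels, and the 24 h values overlapped with them. The difference between 24 h and 2 h was 0.40 ± 0.22 (log2, SE) with a limma Benjamini-Hochberg adjusted p of 0.277. Without both 2 h libraries numbered 1 it was 0.78 with an adjusted p of 0.049, so this call turned on which 2 h libraries were used.

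WND2A and WND2B, the other NAC pair, stayed low. WND2A ranged from 0.521 to 1.53 FPKM with a median of 0.899 FPKM. Its 4 libraries at 12 h (0.521 to 0.682 FPKM) lay below all 4 at 4 h (0.776 to 0.916 FPKM), and all 4 at 24 h (0.952 to 1.20 FPKM) lay above those at 12 h. Among all tested genes 9.45% lay wholly lower at 12 h than at 4 h and 8.89% wholly higher at 24 h than at 12 h. The dip did not pass in limma, with Benjamini-Hochberg adjusted p values of 0.388 for 12 h against 4 h and 0.2 for 24 h against 12 h. Its 24 h libraries did not differ from those at 2 h beyond the spread (0.14 ± 0.14, log2, SE; adjusted p = 0.537). That difference was 0.38 without both 2 h libraries numbered 1 and -0.088 without those numbered 2. At 2 h 1 library of WND2A at 200 µM had 1.53 FPKM and the other 3 lay between 0.58 and 0.907 FPKM.

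WND2B ranged from 0.0449 FPKM, which was 1 fragment, to 0.814 FPKM, which was 18 fragments. Fitted without the filter on low values, it had a difference between 24 h and 2 h of -0.27 ± 0.12 (log2, SE) with a limma Benjamini-Hochberg adjusted p of 0.21. At 2 h its libraries had 0.814 and 0.649 FPKM at 10 µM, against 0.136 and 0.441 FPKM at 200 µM. That difference of 0.43 ± 0.18 (log2, SE) had an unadjusted p of 0.0283 and an adjusted p of 1.

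The MYB genes act below the NAC genes in the relay. MYB020 was near its highest level at 2 and 4 h and low at 12 and 24 h. At 10 µM it measured 2.01 and 1.94 FPKM at 2 h, 2.27 and 1.57 FPKM at 4 h, 2.33 and 0.80 FPKM at 8 h, 1.12 and 0.512 FPKM at 12 h, and 0.815 and 0.592 FPKM at 24 h. At 200 µM it measured 2.90 and 2.08 FPKM at 2 h, 1.76 and 2.89 FPKM at 4 h, 0.899 and 1.42 FPKM at 8 h, 0.901 and 0.558 FPKM at 12 h, and 1.24 and 1.14 FPKM at 24 h. All libraries at 2 and 4 h exceeded all libraries at 12 and 24 h. Of all tested genes 6.24% lay wholly lower at 24 h than at 2 h, and 9.45% wholly lower at 12 h than at 4 h. The share for these times together was not computed. At 8 h the 10 µM library numbered 1 lay in the early range and the library numbered 2 in the late range.

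MYB020 fell by 0.81 ± 0.19 (log2, SE) at 12 h against 4 h, to 0.772 ± 0.288 FPKM at 12 h, against 2.12 ± 0.59 FPKM at 4 h (SD, n = 4 each; limma, Benjamini-Hochberg adjusted p = 0.0233). It was 1 gene of the 7 tested that passed this comparison, against 7.18% of all tested genes (4.01% lower and 3.18% higher at 12 h). At 24 h it was lower than at 2 h by a log2 difference of -0.73 ± 0.19 (SE; adjusted p = 0.0251), and by -1.26 ± 0.35 on fragment counts. The 4 libraries at 24 h held 98 MYB020 fragments together, against 222 at 2 h.

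These calls for MYB020 lay close to the threshold. The difference between 12 h and 4 h missed it without 1 of 4 libraries (limma, Benjamini-Hochberg adjusted p from 0.0921 to 0.118), namely replicate 1 at 4 h and replicate 2 at 12 h at 10 µM, and replicate 2 at 4 h and replicate 2 at 12 h at 200 µM. The difference between 24 h and 2 h missed it without any 1 of the 8 libraries at these times other than replicate 2 at 200 µM and 2 h (adjusted p from 0.0532 to 0.0836). For its variation with time, leaving out the 12 h library numbered 2 at 200 µM gave an adjusted p of 0.0518. Without both 2 h libraries numbered 1 the difference of 24 h and 2 h was -0.64 (adjusted p = 0.125), and without those numbered 2 it was -0.83 (adjusted p = 0.0497). Without the 4 libraries at 8 h the 2 differences passed with adjusted p values of 0.0075 and 0.0091.

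MYB021, the most abundant of the 8 genes, followed MYB020 in outline without passing. At 10 µM it measured 3.97 and 2.79 FPKM at 2 h, 3.58 and 4.82 FPKM at 4 h, 4.49 and 1.85 FPKM at 8 h, 2.61 and 2.95 FPKM at 12 h, and 1.90 and 2.09 FPKM at 24 h. At 200 µM it measured 4.30 and 3.40 FPKM at 2 h, 2.90 and 3.53 FPKM at 4 h, 2.10 and 2.39 FPKM at 8 h, 2.88 and 1.75 FPKM at 12 h, and 2.82 and 3.19 FPKM at 24 h. The ranges at 24 h (1.90 to 3.19 FPKM) and 2 h (2.79 to 4.30 FPKM) overlapped. The difference of 24 h and 2 h was -0.40 ± 0.18 (log2, SE; limma, Benjamini-Hochberg adjusted p = 0.168), and that of 12 h and 4 h was -0.41 ± 0.18 (adjusted p = 0.197). Without both 2 h libraries numbered 1 the difference of 24 h and 2 h was -0.24, and without those numbered 2 it was -0.57. Its variation with time passed without replicate 1 at 10 µM and 8 h (adjusted p = 0.0248), a fit in which that group held the low library alone.

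MYB002 and MYB003, the less abundant members of the MYB pairs, had their highest mean over both levels at 2 h. MYB002 lay between 0.462 and 0.894 FPKM at 24 h and between 0.841 and 1.63 FPKM at 2 h. MYB003 lay between 0.396 and 0.93 FPKM at 24 h and between 0.708 and 1.77 FPKM at 2 h. The 24 h and 2 h libraries of both genes overlapped. The differences of 24 h and 2 h were -0.34 ± 0.16 for MYB002 (log2, SE; limma, Benjamini-Hochberg adjusted p = 0.177) and -0.39 ± 0.16 for MYB003 (adjusted p = 0.139). Without both 2 h libraries numbered 1 the differences were -0.24 for MYB002 and -0.18 for MYB003, and without those numbered 2 they were -0.44 for MYB002 and -0.59 for MYB003. MYB002 reached 1 FPKM in 3 libraries, 2 of them at 2 h, and passed the filter on low values through that time, so its difference supports nothing further. With quantile normalization between libraries the difference for MYB003 was -0.49 with an adjusted p of 0.0485. Between 24 h and 2 h 1 gene of each family passed, WND1A higher and MYB020 lower, against 8.05% of all tested genes that were higher and 4.24% that were lower at 24 h.

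**Figure D2:**
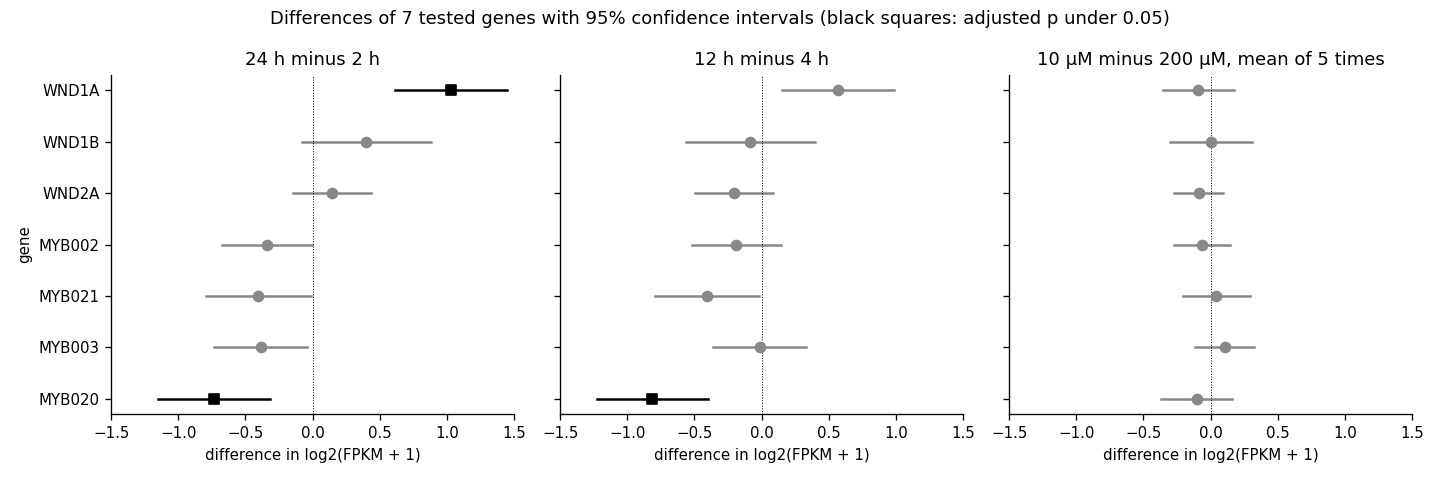
Differences in log2(FPKM + 1) of the 7 tested genes with 95% confidence intervals, from left to right 24 h minus 2 h and 12 h minus 4 h (means of both phosphate levels) and 10 µM minus 200 µM (mean of 5 times). Black squares passed an adjusted p of 0.05, grey circles did not; WND1A lies to the right at 1.03 and MYB020 to the left at -0.73 for 24 h, and all intervals include 0 for phosphate.

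The order of the summed levels of the families was not the same at 2 h and at 24 h after transfer. The summed FPKM of the 4 MYB genes was above that of the 4 NAC genes in all 4 libraries at 2 h and all 4 at 4 h, and below it in all 4 at 24 h, with 2 of 4 libraries on each side at 8 h and at 12 h. At 24 h the NAC sum was 6.12 to 7.22 FPKM and the MYB sum 3.57 to 5.68 FPKM, and at 2 h they were 2.62 to 5.08 FPKM and 6.92 to 10.1 FPKM. The gene with the highest FPKM of the 8 was WND1A in all 4 libraries at 24 h and MYB021 in all 4 at 2 h and all 4 at 4 h. WND1A made up 47.0 to 59.2% of the NAC sum at 24 h, against 24.5 to 49.7% at 2 h, and these ranges overlapped. Its share was 30.1 to 49.2% at 4 h, 38.4 to 58.3% at 8 h and 52.4 to 66.2% at 12 h, so it was not highest at 24 h. At 2 h the MYB sum was 8.70 and 10.1 FPKM in the libraries numbered 1, at 10 and 200 µM. In those numbered 2 it was 6.92 and 7.03 FPKM. The NAC sum at 2 h was likewise split, with 5.08 and 4.98 FPKM in the libraries numbered 1. In those numbered 2 it was 2.62 and 3.08 FPKM. The part of this split in the course of either sum was not tested. These sums are descriptions without a test, since the genes were chosen with results of these data known. They do not show a change of whole families. Of the genes summed, only WND1A and MYB020 passed between 24 h and 2 h. The mean of WND2B was lower at 24 h (0.24 FPKM) than at 2 h (0.51 FPKM), against the NAC sum. MYB002, part of the MYB sum, passed the filter on low values through 2 h.

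**Figure D3:**
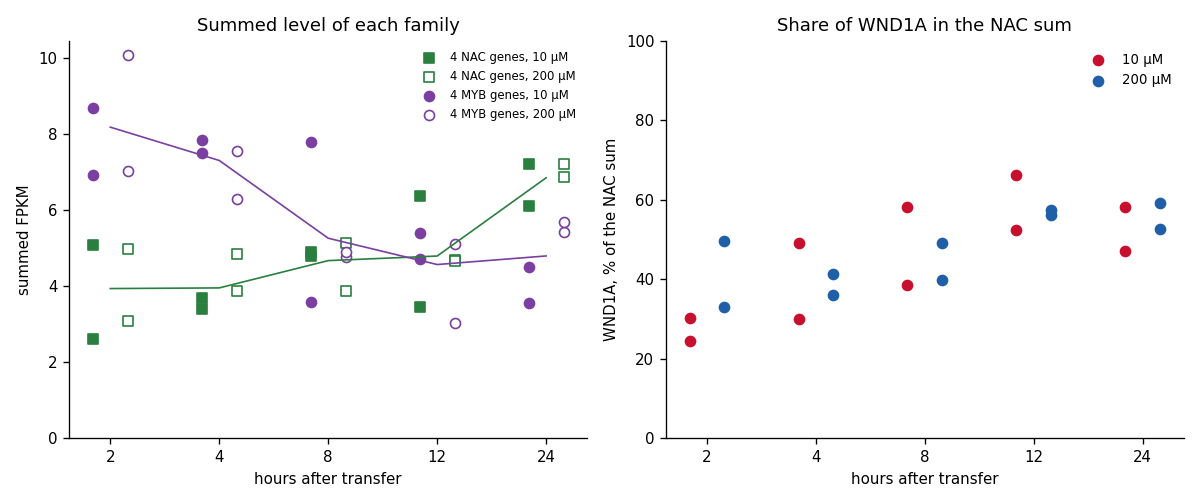
Left, summed FPKM of the 4 NAC genes (green squares) and the 4 MYB genes (purple circles) in each library against hours after transfer, filled for 10 µM and open for 200 µM, with lines through the means of 4 libraries; right, WND1A as a percentage of the NAC sum (red 10 µM, blue 200 µM). At 24 h all 4 NAC sums (6.12 FPKM or more) lie above all 4 MYB sums (5.68 FPKM or less), the reverse of 2 h.

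Phosphate gave no detectable difference in any of the genes. Over the 5 times together 0 of the 7 tested genes passed between 10 and 200 µM KH2PO4, against 0.0441% of all tested genes, and 0 of 7 reached an unadjusted p under 0.05 in limma, against 7.13%. The mean log2 differences of 10 and 200 µM, with their SE, were -0.09 ± 0.12 for WND1A, 0.00 ± 0.14 for WND1B, -0.09 ± 0.09 for WND2A, -0.06 ± 0.10 for MYB002, 0.04 ± 0.12 for MYB021, 0.11 ± 0.10 for MYB003 and -0.10 ± 0.12 for MYB020. Limma's Benjamini-Hochberg adjusted p values lay between 0.867 and 0.998. The 95% confidence intervals of the 7 genes lay within 0.776-fold and 1.25-fold on the scale of log2(FPKM + 1), and within 0.63-fold and 1.60-fold on fragment counts, so differences within these bounds are not excluded. For WND2B, fitted without the filter, the difference was 0.05 ± 0.08 (log2, SE; adjusted p = 0.935).

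At single times 0 of the 7 genes passed at 2, 4, 8, 12 or 24 h in limma, as did 0% of all tested genes. At an unadjusted p under 0.05 there were also 0 of the 7 tested genes at each time (WND2B, outside the filter, had 0.0283 at 2 h), against shares of all tested genes of 1.97% (2 h), 3.59% (4 h), 5.96% (8 h), 4.54% (12 h) and 5.10% (24 h), and voom called 0 of 7. In libraries at 24 h, WND1A, MYB020 and MYB021 were lower at 10 µM without overlap, with 3.56 and 3.39 FPKM at 10 µM against 3.62 and 4.27 FPKM at 200 µM for WND1A. MYB020 had 0.815 and 0.592 FPKM at 10 µM against 1.24 and 1.14 FPKM at 200 µM, and MYB021 had 1.90 and 2.09 FPKM at 10 µM against 2.82 and 3.19 FPKM at 200 µM. Of all tested genes 21.5% were lower at 10 µM in this way at 24 h, and 22.0% were higher, so 3 and 0 of 8 are descriptions only. MYB021 lay the other way at 4 h, with 3.58 and 4.82 FPKM at 10 µM against 2.90 and 3.53 FPKM at 200 µM.

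At the other times 1 to 3 of the 8 genes did not overlap between the phosphate levels. At 2 h WND2B was higher at 10 µM (9.89% of all tested genes) and WND1A and MYB020 were lower (9.63%). At 4 h MYB021 was higher (16.5%) and WND1B lower (4476 of the 24934 tested genes, or 18%), and at 8 h 0 of 8 were higher (14.4%) and MYB002 was lower (12.7%). At 12 h MYB003 was higher (18.8%) and WND2A lower (19.1%). WND1A and MYB020 lay lower at 10 µM at both 2 h and 24 h, and no other gene lay on the same side without overlap at more than 1 time. The share of all tested genes that did so at more than 1 time was not computed, so this is a description only.

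No change of the phosphate difference along the time course was detected. Limma's F test of it called 0 of 7 genes, against 0% of all tested genes, and 0 of 7 reached an unadjusted p of 0.05, against 3.01%. MYB021 had the lowest unadjusted p of the 7, at 0.251, with a Benjamini-Hochberg adjusted p of 1.

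Within each pair of duplicates 1 gene was usually the more abundant. MYB021 exceeded MYB002 in 20 of 20 libraries, by a median of 4.25-fold, and WND2A exceeded WND2B in 19 of 20, by a median of 2.90-fold. MYB020 exceeded MYB003 in 18 of 20 libraries (median 1.82-fold) and WND1A exceeded WND1B in 16 of 20 (median 1.85-fold). Ratios of near-identical genes are uncertain, because how the authors treated reads shared by such copies is not given in the sources used here.

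The ratio WND1A/WND1B was between 1.28 and 3.17 at 24 h and between 0.837 and 2.91 at 2 h. Its log2 value averaged 1.08 ± 0.58 at 24 h and 0.28 ± 0.85 at 2 h (SD, n = 4 each), and the difference of 0.80 was within the spread (two-sided exact permutation test over libraries, p = 0.2, 0.457 adjusted over the 4 pairs). WND1A was thus not shown to rise by more than its duplicate. The log2 ratios of the other pairs differed between 24 h and 2 h by 1.34 (WND2A/WND2B), 0.19 (MYB021/MYB002) and -0.44 (MYB020/MYB003), with exact permutation p values of 0.229, 0.571 and 0.457. With 4 libraries against 4 the smallest p this test can give is 0.0286. It was chosen after the values had been seen.

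**Figure D4:**
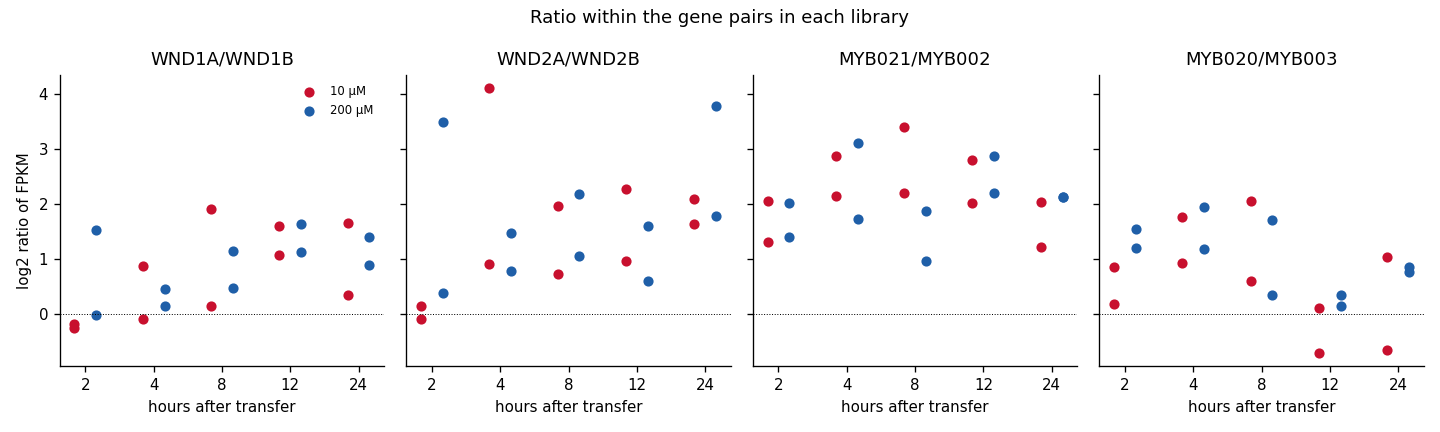
Log2 ratio of FPKM within each pair of duplicates in each library (red 10 µM, left; blue 200 µM, right) against hours after transfer; the dotted line marks equal levels. MYB021 lies above MYB002 in all 20 libraries, and in the other pairs 1 to 4 libraries lie below the line.

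The 3 pairs of genes with the most alike profiles over the libraries were not pairs of duplicates. Pearson's r of log2(FPKM + 1) over the 20 libraries was highest between MYB020 and MYB021 (0.76), then between WND1B and WND2A (0.62) and between MYB002 and MYB003 (0.62), and lowest between WND1A and MYB020 (-0.56). Of the tested genes, 0.269% were more like MYB021 in profile than MYB020 was, and 2.25% more like MYB020 than MYB021 was. For MYB002 and MYB003 these shares were 1.40% and 0.726%, and for WND1B and WND2A 2.44% and 2.77%. The member most like WND1A was its duplicate WND1B, but 22.1% of the tested genes were more like WND1A than WND1B was. In turn, 14.4% were more like WND1B than WND1A was. WND2B had no r above 0.067 with any other member. The duplicate pairs had r of 0.39 (WND1A and WND1B), -0.235 (WND2A and WND2B), 0.31 (MYB002 and MYB021) and 0.39 (MYB003 and MYB020). These correlations are descriptions: the libraries share times of sampling, and 2 libraries of a group are not independent of its time.

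Each group's mean was then taken away, so that only differences between replicates were left. On these r was 0.69 between WND1B and WND2A, 0.62 between MYB020 and MYB021 and 0.61 between MYB002 and MYB003. Each such r rests on 10 replicate differences, 1 for each group, and shares of all tested genes were not computed for it. The part of the 2 h libraries that deviated together was not tested. WND1B also varied between replicates with MYB021 (0.66) and MYB003 (0.64). Its r with them was -0.36 and -0.19 over the 10 group means, and 0.195 and 0.266 over all 20 libraries. None of these values was tested against 0. Between WND1A and MYB020 the value was 0.13 between replicates and -0.77 over the 10 group means. The value over the group means restates the opposite courses of WND1A and MYB020 with time. With 10 replicate differences, the value between replicates cannot show whether the genes were also opposed there.

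**Figure D5:**
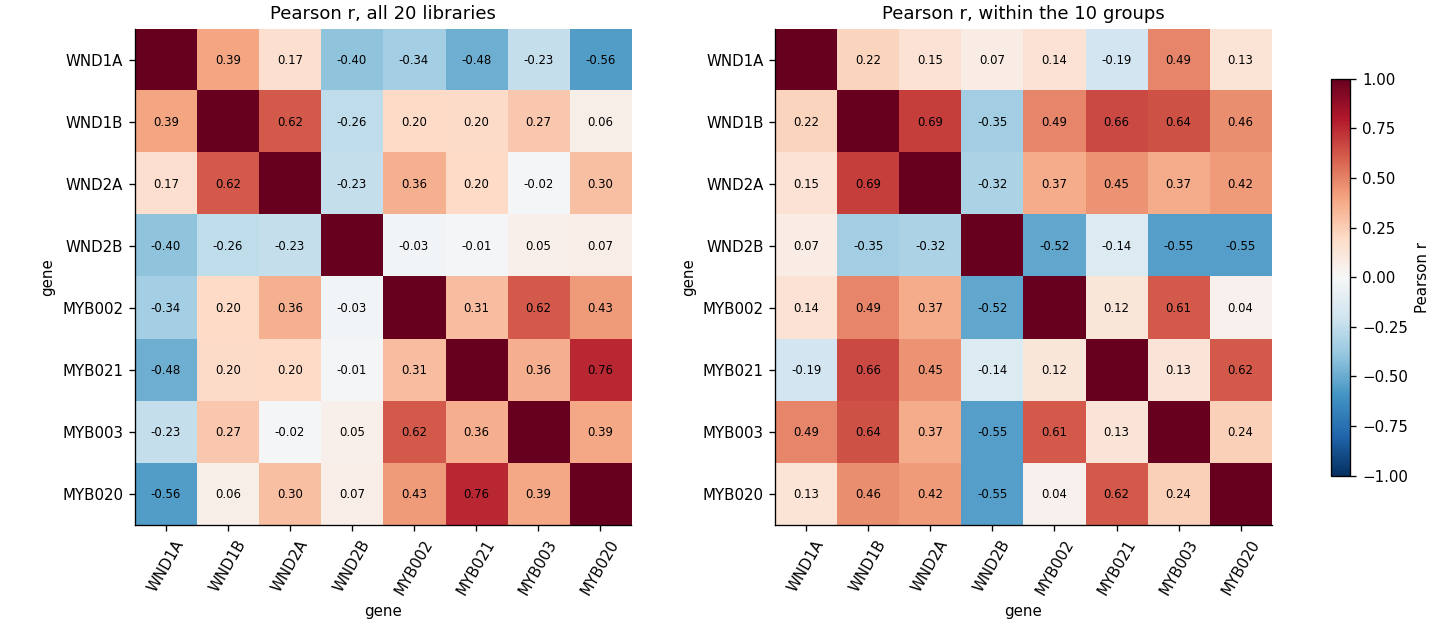
Pearson's r between the 8 genes (rows and columns) on log2(FPKM + 1), left over all 20 libraries and right after subtracting each group's mean, with red positive and blue negative. MYB020 with MYB021 is 0.76 on the left and 0.62 on the right, and WND1A with MYB020 is -0.56 on the left and 0.13 on the right.

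The gene outside the 8 most like WND1A over the 20 libraries was Potri.001G410700 (r = 0.91, mean 56.5 FPKM), and the gene most like MYB020 was Potri.001G132001 (r = 0.92, mean 13.2 FPKM). Over the 10 group means these r values were 0.978 and 0.935. For the other 6 genes the highest r lay between 0.715 (WND2B) and 0.859 (WND2A). Each is the highest among all tested genes outside the 8, where the size of the search alone favours high values, and nothing about function follows from it.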

How the data were processed

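The authors deposited 1 table of FPKM, with 34699 genes and 20 libraries made from total RNA of the basal ends of cuttings. Bowtie2 2.2.3 and HISAT2 2.1.0 stand in the submitters' processing notes, with no step assigned to either. Which genome, annotation, strand setting and FPKM program were used is not given in the sources used here. Columns of values left unused numbered 0.

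Genes with at least 1 FPKM in at least 2 libraries (24934) were tested on log2(FPKM + 1) with limma 3.58.1 in R 4.3.3, using 1 mean for each group of phosphate and time, a mean trend and Benjamini-Hochberg adjustment over all tested genes at 0.05. Tests were two-sided. In data simulated for the difference of 24 h and 2 h, 48.5% of 1.5-fold and 81.5% of 2-fold changes were recovered among 200 changed genes. For the mean phosphate difference 83% and 96% were recovered. The changed genes had a mean of at least 1 FPKM, which 4 of the 8 genes did not reach. The other 4 were weaker than most tested genes, and the simulated noise was drawn separately for each library. These shares therefore do not give the recovery for the 8 genes.

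Whole fragments, to within 0.06 of a fragment plus the rounding of the FPKM, were recovered for 24927 tested genes (99.97%), by a search over lengths of 60 to 20000 bases. Checked on simulated data, 99.91% of 11360 genes came back exactly. They entered voom only.

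Named genes were all 8 members, with the most alike gene printed for the 2 that passed. Lists of wall and marker genes were void without annotation. The members, lists and tests were chosen with earlier results of these data known. Same-numbered libraries deviated together at 2 h (r = 0.504) but not at the other times (-0.238 to 0.075), so the numbers were not taken to pair libraries.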

Additional observations from a re-analysis of the deposited data

How the results depend on the processing

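Of 329 values of single genes under settings other than leaving out 1 library, 319 kept their direction and side of the threshold. This count says little about the calls. Values far from the threshold, such as those for phosphate, are part of it. So are differences that a setting cannot move, such as 12 h against 4 h without 2 h libraries. Another 2 values lost the call, for MYB020 without the 2 h libraries numbered 1. The reversed ones were all small: for the mean phosphate difference, WND1B gave -0.0043 with a pseudocount of 0.1, -0.0058 without the 8 h libraries and -0.0057 without the 2 h libraries numbered 2, MYB002 gave 0.018 and MYB021 -0.017 without the 8 h libraries, and WND2A gave -0.088 for 24 h against 2 h without the 2 h libraries numbered 2. Settings without the 2 h libraries were chosen after seeing the data.

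Leaving out 1 library gave ranges of -0.077 to 0.083 for the phosphate difference of WND1B, -0.051 to 0.138 for that of MYB021, -0.177 to 0.0066 for 12 h against 4 h in WND1B, -0.159 to 0.132 for that in MYB003, and -0.027 to 0.314 for 24 h against 2 h in WND2A. The number of the 7 genes that passed was 1 to 3 for variation with time, 0 to 1 for 12 h against 4 h and 1 to 2 for 24 h against 2 h. It was 1 for variation with time without the 2 h libraries numbered 1, where MYB020 had an adjusted p of 0.0536 in limma, with Benjamini-Hochberg adjustment.

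Over all genes, leaving out 1 library gave 6 to 25 genes for the mean phosphate difference (11 in the fit reported), 0 to 1 at 2 h, 0 to 1 at 4 h, 0 to 352 at 8 h, 0 to 4 at 12 h, 0 to 2 at 24 h and 0 to 31 for its variation with time. The highest counts at 8 h, for the mean difference and for its variation with time came without replicate 1 of the 10 µM libraries at 8 h. The same settings gave 2072 to 5188 for variation with time (3632), 0 to 100 for 4 h against 2 h (12), 481 to 2452 for 12 h against 4 h (1791), 64 to 1042 for 24 h against 12 h (366) and 1412 to 3539 for 24 h against 2 h (3064). Without the 8 h libraries 5526 genes varied with time, 100 differed at 4 h against 2 h, 1032 at 24 h against 12 h, and 11 between phosphate levels at 12 h (0 in the fit reported). Without the 2 h libraries numbered 1 or 2, 71 or 48 genes differed at 4 h against 2 h, 634 or 628 at 24 h against 12 h, 1 and 1 between phosphate levels at 24 h, and 1 at 2 h without those numbered 2. Without the filter on low values 1 gene each passed between phosphate levels at 4 h and 12 h and for the variation of that difference with time, and voom gave 4 at 24 h. For 24 h against 2 h, 2007 genes were higher and 1057 lower, and 1475 and 1318 with quantile normalization. For 24 h against 12 h, 71.3% of the called genes were higher, and 54.5% with quantile normalization. The cause of these shifts was not tested.

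With the replicate number as a replicate block, 11 genes passed for the mean phosphate difference and 3481 varied with time, and 8 passed with a replicate block within time. No call of the 7 genes changed. Both count tests planned on recovered fragments were not run, since the deposited unit was FPKM. A library held 1 to 123 fragments of a gene, and the squared spread between replicates was 1.85 to 5.68 times what counting gives, so both depth and spread limit what could be detected.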
